A study of Caenorhabditis elegans with 2 samples.

Results

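The 352 KLE-2 peaks described here lay in the 2 broad stretches of Caenorhabditis elegans chromosome IV that are known for their piRNA genes. They were taken from the 1126 peaks on IV and the 6218 peaks of the whole list by position alone. A peak belonged to the left domain when its midpoint lay between 4.5 and 7.0 Mb, and to the right domain when it lay between 13.5 and 17.2 Mb (WormBase WS220). The left domain held 163 peaks and the right domain 189, and the other 774 peaks of IV served as background. That background comprised the left flank (364 peaks), the middle of IV between the domains (400 peaks) and the short right flank (10 peaks).

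Condensin II is one of the ring-shaped SMC complexes that compact and segregate chromosomes, and KLE-2 is its kleisin, the subunit that closes the ring. piRNAs are small RNAs of the germline that guide the Argonaute PRG-1 to silence foreign and transposon sequences. In this worm they are transcribed from a great many separate, very short genes, most of which crowd into domains of chromosome IV, between and inside protein-coding genes. In the RefSeq gene table for the WBcel235 assembly, 14714 of 15363 annotated piRNA genes, 95.8%, were on IV. Of these, 14370 had another piRNA gene as a direct neighbour in gene order. The positions of that table belong to another assembly than the peaks, so no peak was set beside a gene, and the piRNA content of the domains was not measured here.

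The series contained 1 chromatin immunoprecipitation sequencing (ChIP-seq) library and 1 input library (a sample of the sheared chromatin before immunoprecipitation), both from whole fem-2(b245) hermaphrodites kept at 20 °C. The antibody was an affinity-purified rabbit polyclonal raised against KLE-2. The genotype was given as fem-2(b245)III, an allele of a gene of the sex determination pathway whose product promotes male fates, among them the making of sperm. Both libraries carried that allele, so what it changes in these animals could not be measured. The stage label named a young adult with a germline, whereas the growth protocol described gravid adults collected by floatation. Whole animals mix germline and somatic nuclei, so a peak cannot be assigned to either. All values below came from the 1 peak list of the ChIP library. There was therefore no replicate error and no test between conditions. Intervals are exact 95% intervals that cover counting error only, and they treat peaks as independent, which makes them too narrow where peaks cluster.

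Counted in peaks, density was lower in the right domain than in the left. The left domain had 65.2 peaks per Mb (exact Poisson interval 55.6 to 76.0) and the right domain 51.1 per Mb (44.1 to 58.9), against 68.5 per Mb (63.8 to 73.5) in the rest of IV. The left domain was thus within counting error of the background, with a ratio of 0.951 (0.799 to 1.13). The right domain was sparser, with a ratio of 0.745 (0.632 to 0.875). The background was itself uneven, with 80.9 peaks per Mb in the left flank, 61.5 in the middle and 34.1 in the right flank, which rests on 10 peaks. Against the middle alone the ratio was 1.06 (0.878 to 1.27) for the left domain and 0.830 (0.695 to 0.989) for the right domain. Set directly against each other, the right domain had 0.784 times the density of the left domain (0.632 to 0.972). That interval treats peaks as independent and is too narrow. Over windows of 100 kb, the variance of peak counts was 4.54 times the mean in the left domain and 1.90 times in the right. With runs of peaks at gaps of at most 2 kb counted once, the left and right domains had 39.2 and 37.0 per Mb.

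Covered length told the domains apart less than peak number did. Peaks covered 115 kb of the left domain, 4.62% of its length, and 155 kb of the right domain, 4.18%, against 4.65% of the rest of IV. By covered bases, the ratio of the right domain to the rest of IV was 0.899 instead of 0.745. The right domain was thus closer to the background in coverage than in number of peaks.

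**Figure D1:**
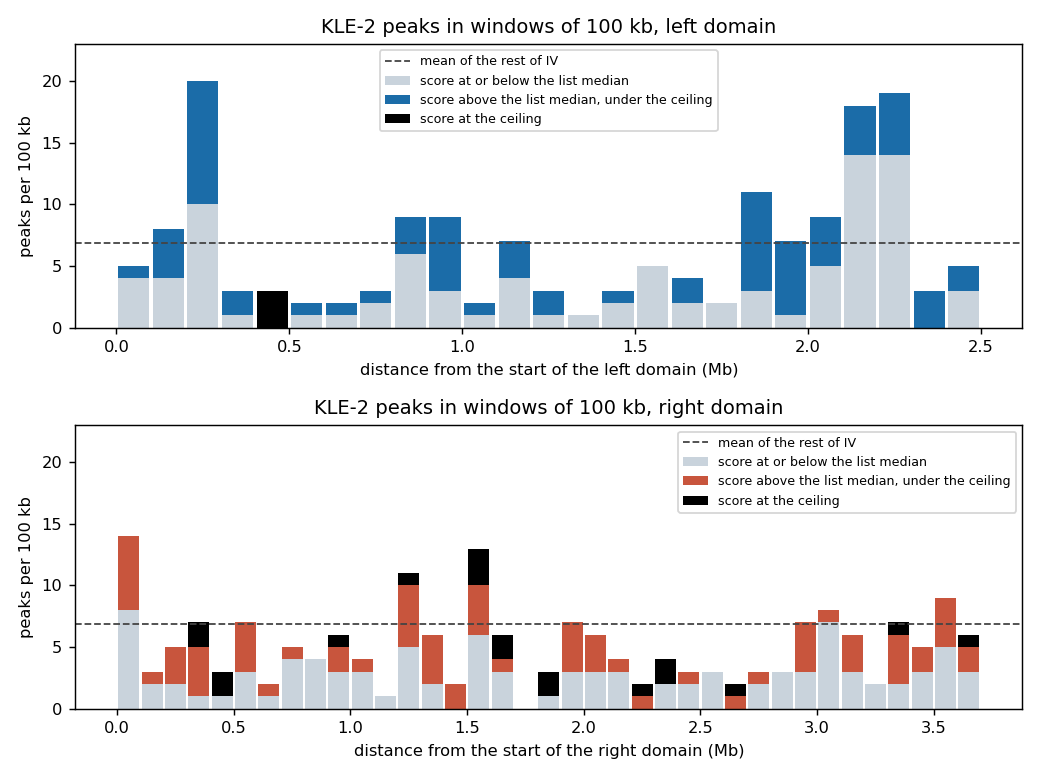
Number of KLE-2 peaks (vertical axis) in successive windows of 100 kb along the left domain (top) and the right domain (bottom), by distance from the domain's start in Mb. Bar parts give peaks at or below the list's median score, above it, and at the score ceiling, and the dashed line is the mean of the rest of IV. In the left domain 3 windows stand at 18 to 20 peaks above a low remainder, whereas no window of the right domain exceeds 14.

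Inside the left domain the peaks were gathered in a few places. Of its 25 windows of 100 kb, 3 held 57 of the 163 peaks, 35.0%. These were the windows at 4.7 to 4.8 Mb with 20 peaks, at 6.6 to 6.7 Mb with 18 and at 6.7 to 6.8 Mb with 19. At the other extreme, 11 windows, 44.0%, held 3 peaks or fewer, and the emptiest, at 5.8 to 5.9 Mb, held 1. The mean was 6.52 ± 5.44 peaks per window (SD, n = 25 windows), with a variance 4.54 times the mean. In the rest of IV the mean was 6.89 ± 3.89 (SD, n = 112 windows), with a variance 2.19 times the mean, and 15.2% of windows held 3 peaks or fewer. The variance was 1.41 times the mean in the middle and 2.83 times in the left flank, which also had 2 windows with 18 peaks or more. Windows are positions in 1 genome and not replicates, and the limit of 18 peaks was chosen after the counts were seen. Without its 3 fullest windows, the left domain's density was 0.703 times that of the rest of IV (0.568 to 0.862), and 0.735 times (0.594 to 0.903) when windows that full were left out of the rest of IV as well. Leaving out full windows of the left domain alone lowers the ratio by construction. In both versions windows were picked by their own counts, so these intervals cannot be read as counting error.

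Over stretches of 500 kb, the left domain held the most peaks in its first and last stretch. Its outermost windows, at 4.5 to 4.6 and 6.9 to 7.0 Mb, held only 5 peaks each. The first stretch, at 4.5 to 5.0 Mb, had 78.0 peaks per Mb (exact Poisson interval 55.5 to 107). That interval includes the 68.5 per Mb of the rest of IV, and 20 of its 39 peaks lay in the window at 4.7 to 4.8 Mb. The next stretch held 25 peaks, and density was 32.0 per Mb (18.3 to 52.0) at 5.5 to 6.0 Mb. Density then was 58.0 per Mb at 6.0 to 6.5 Mb and 108 per Mb (81.1 to 141) at 6.5 to 7.0 Mb. The densest stretch thus had 54 peaks and the sparsest 16, and their intervals did not overlap. These extremes were picked after the counts were seen. Of the 54 peaks, 21 lay within 42.3 kb, so the interval of that stretch is too narrow.

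The right domain was more even. It had a mean of 5.11 ± 3.12 peaks per window (SD, n = 37 windows), with a variance 1.90 times the mean. Its fullest window, at 13.5 to 13.6 Mb, held 14 peaks, and the one at 15.2 to 15.3 Mb was empty. Sparse windows were frequent here too, since 14 of 37, 37.8%, held 3 peaks or fewer. Over its full stretches of 500 kb, density ran from 36.0 peaks per Mb (21.3 to 56.9) at 16.0 to 16.5 Mb to 64.0 per Mb (43.8 to 90.3) at 13.5 to 14.0 Mb, and these intervals overlapped. The shorter stretch from 17.0 Mb to the end of the domain at 17.2 Mb held 15 peaks.

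**Figure D2:**
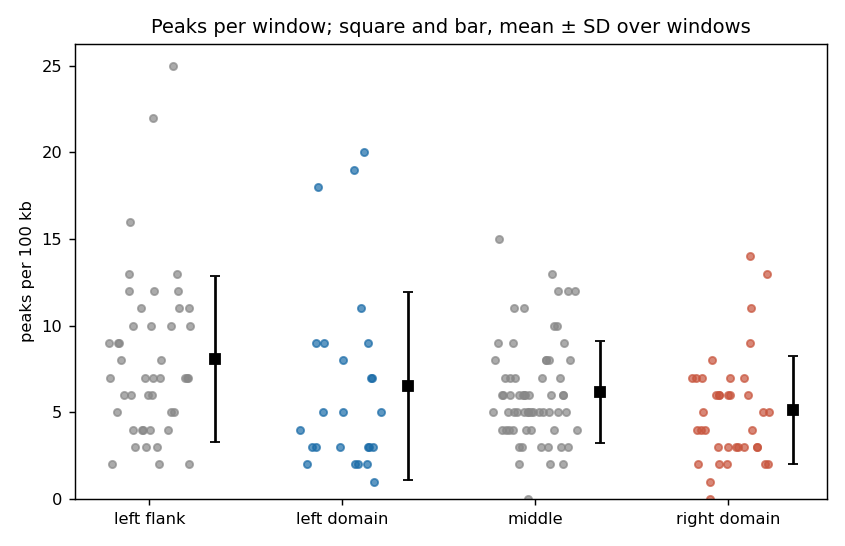
Peaks per window of 100 kb (vertical axis) in 4 parts of chromosome IV, with 1 point per window and squares with bars for mean ± SD over windows. The left domain has both many windows with 3 peaks or fewer and 3 windows with 18 or more, and the left flank has windows with 22 and 25 peaks.

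Gaps between peaks were shorter at the median in the left domain than in the right, but the intervals of the domains overlapped in each measure given here. The distance from a peak to the next had a median of 3.79 kb in the left domain (exact order-statistic interval 2.21 to 6.82), of 7.64 kb in the right domain (5.24 to 11.5) and of 6.65 kb in the rest of IV (5.76 to 8.03). In the left domain 92 of 162 gaps, 56.8%, were shorter than the median gap of the rest of IV (exact Clopper-Pearson interval 48.8 to 64.5%), and in the right domain 90 of 188, 47.9% (40.5 to 55.3%). Both intervals include 50%, the value of the background itself. Without its 3 fullest windows the left share was 44.7% (34.9 to 54.8%). With the middle alone as background, 63.6% of left domain gaps were shorter than the median (55.7 to 71.0%), which excludes 50%. In the left domain 92 of 163 peaks, 56.4% (48.5 to 64.2%), had another peak within 2 kb. The share was 45.5% (38.3 to 52.9%) in the right domain, 43.4% (39.9 to 47.0%) in the rest of IV and 35.3% (30.6 to 40.2%) in the middle alone. Close neighbours were thus more frequent in the left domain than in the background by intervals that did not overlap, but the left flank, at 53.0% (47.8 to 58.2%), was within counting error of it.

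Long stretches without a peak took up more of both domains than of the rest of IV. Gaps of 50 kb or more made up 40.5% of the length of the left domain (12 gaps, 1013 kb) and 46.7% of the right domain (23 gaps, 1729 kb), against 21.3% of the rest of IV (36 gaps). These shares have no interval, and by number they rest on 12 of 162 gaps, 23 of 188 and 36 of 771. At the same relative positions on chromosome V, such gaps took up 38.0% (left) and 36.0% (right) of the length. The longest gap of the left domain was 156 kb (4927679 to 5083800), followed by 127 kb (5817949 to 5945424) and 99.8 kb (5549212 to 5649007). The longest of the right domain were 132 kb (16254385 to 16386728), 117 kb (13549672 to 13666734) and 112 kb (15200006 to 15311954). The longest gap in the rest of IV was 113 kb. The 90th percentile of gap length was 41.0 kb in the left domain, 53.6 kb in the right domain and 37.9 kb in the rest of IV.

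**Figure D3:**
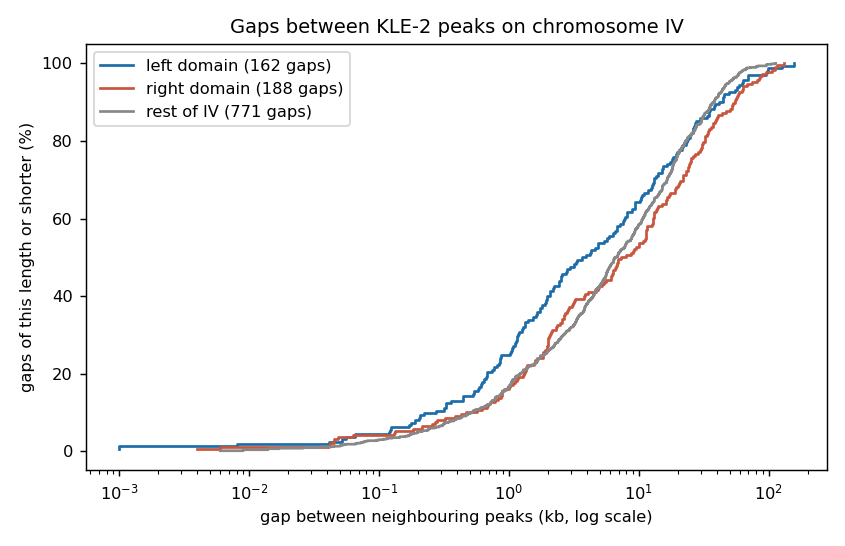
Cumulative share of gaps between neighbouring peaks (vertical axis, percent) by gap length in kb on a log scale, for the left domain, the right domain and the rest of IV. The left domain lies above the background at gaps of about 1 to 5 kb, and the right domain lies below it from 10 kb on.

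Counting each run of peaks with gaps of at most 2 kb as 1 site brought the domains together. The left domain then held 98 sites, 39.2 per Mb (exact Poisson interval 31.8 to 47.8), and the right domain 137 sites, 37.0 per Mb (31.1 to 43.8), against 50.9 per Mb (46.8 to 55.3) in the rest of IV. The ratios to the rest of IV were 0.770 (0.615 to 0.955) and 0.727 (0.599 to 0.878). The left domain thus had fewer separate sites than the background and more peaks per site, with a mean of 1.66 peaks against 1.35, while the right domain had 1.38. When sites were joined over gaps of 10 kb the ratios were 0.823 (0.612 to 1.09) and 0.838 (0.656 to 1.06), and both intervals then included 1. With a joining gap of 1 kb the left ratio of 0.860 (0.703 to 1.04) also included 1.

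Runs of 4 or more peaks held 49 of the 163 peaks in the left domain, 30.1% (exact Clopper-Pearson interval 23.1 to 37.7%). They held 10.1% of peaks (6.16 to 15.3%) in the right domain and 7.62% (5.85 to 9.72%) in the rest of IV. The longest run of IV was in the left domain, with 12 peaks over 14.3 kb (6688916 to 6703192). The next run began 7.56 kb farther on and had 9 peaks over 20.5 kb (6710756 to 6731244). A run of 4 peaks lay before them (6668282 to 6675678). The longest run of the right domain had 6 peaks over 10.7 kb (13502771 to 13513469), close to the domain's left edge, and the longest in the rest of IV had 8.

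The peaks of the crowded stretch from 6688916 to 6731244, which holds the runs of 12 and 9, were low in score. Those of the run of 9 were also wide. Each peak's score is the one in the authors' list, which names MACS as peak caller and gives no scale. The score serves here only to rank peaks within the list, where the lowest is 50.08 and the median 229.53. The 21 peaks of the stretch covered 53.9% of its 42.3 kb and supplied 19.8% of all covered bases of the left domain. Their median score was 142, and 4 of 21 exceeded the list's median, against a median of 219 and 69 of 142 for the other peaks of the domain. In the run of 12, the peaks scored 61.32, 143.65, 220.17, 55.66, 142.00 and 60.78 in order from the left. The next 6 scored 288.22, 101.44, 73.09, 92.57, 77.08 and 95.94, so 1 of the 12 lay above the median of the list. Their widths ran from 391 to 1304 bp with a median of 545.5 bp, against a median of 1411 bp in the run of 9. A single base separated the peaks that scored 143.65 and 220.17.

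At like scores, peaks of this stretch were wider than the median peak of the other parts of IV. Among peaks with a score from 100 to below 500, the 12 of the crowded stretch were 1277 bp wide at the median, with quartiles of 917 and 1736 bp. The 71 other peaks of the left domain in that score range had a median of 529 bp (501 and 596 bp), the 82 of the right domain 516 bp and the 365 in the rest of IV 520 bp (463 and 603 bp). Of the 12, 9 were wider than 900 bp, against 22 of the 365. The stretch was picked for its crowding after the peaks were seen, so these values are a description. Wide peaks of low or middling score were also found in other runs on IV. A run of 4 in the middle (8572564 to 8582029) had scores of 182.5 to 499.59 and a median width of 2347 bp. Its median score was 244.59, and 3 of its 4 peaks exceeded the list's median. The run of 4 at 6668282 to 6675678 in the left domain had a median width of 1116 bp and a median score of 108. In the left flank, the run of 8 (689278 to 698141) had medians of 670.0 bp and 100.1 and covered 6.58 of its 8.86 kb. Score and width rose together across the 21 peaks, with a Spearman's rho of 0.956, and across all 163 peaks of the left domain with 0.676, against 0.893 in the right domain and 0.845 in the rest of IV. Peaks of 1 list are not independent replicates.

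**Figure D4:**
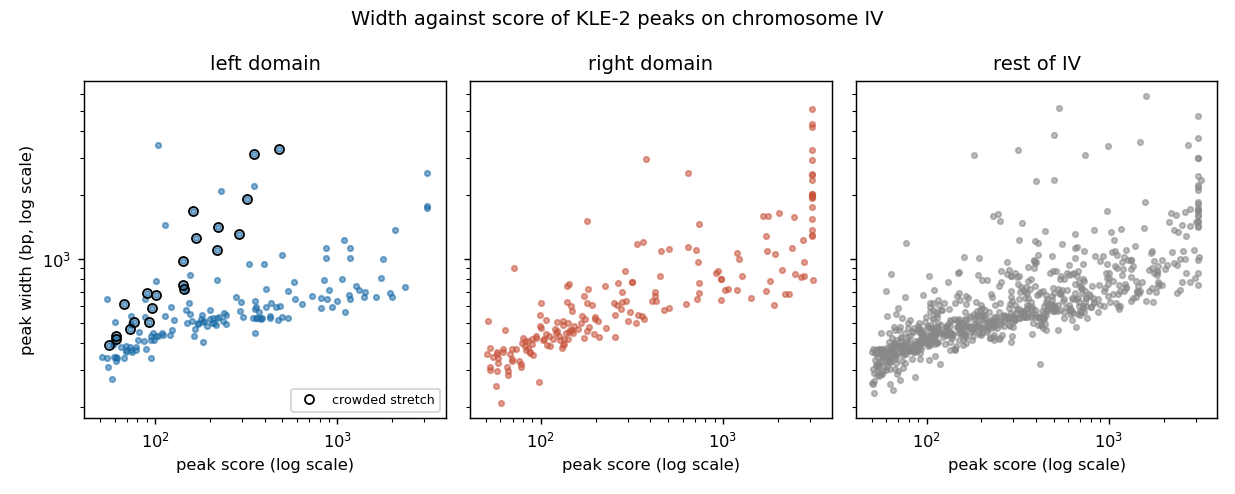
Width in bp against score, both on log scales, for each peak of the left domain, the right domain and the rest of IV. Open circles mark the 21 peaks of the crowded stretch in the left domain, which lie on a steeper line above the main band of peaks, and the column of points at the right of each panel is the score ceiling.

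Elsewhere in the left domain the crowding was of another kind. The window at 4.7 to 4.8 Mb held 20 peaks, of which 10 exceeded the list's median score, and their median width was 532 bp. It included a run of 5 peaks over 8.09 kb (4720313 to 4728400) with scores from 427 to 2350, and a run of 6 (4743443 to 4752274) whose highest score was 1739. The crowded stretch had 21 peaks over 42.3 kb, between its own first and last peak, and this window had 20 over a fixed 100 kb. They also differed in score and width.

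Scores in the left domain were within counting error of the background. The median was 206 (exact order-statistic interval 163 to 246), against 231 (203 to 265) in the rest of IV, and 72 of 163 peaks, 44.2% (36.4 to 52.1%), scored above the background's median. The middle of IV had a higher median of 285 (231 to 329). Against the middle alone as background, 41.1% of left domain peaks scored above the median (33.5 to 49.1%). Scores in the list pile up at 3100, called the ceiling here, which 171 peaks share exactly. In all, 181 peaks score 3100 or more, up to 3219.64, and counts at the ceiling include those above it. The left domain had 3 peaks at this ceiling, 1.84% (0.381 to 5.28%), and all 3 sat side by side. They spanned 4920564 to 4923100 (2537 bp), 4923637 to 4925379 (1743 bp) and 4925906 to 4927678 (1773 bp), with 536 and 526 bp between them. Directly after them began the longest gap of the domain.

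The next highest scores of the left domain were far below the ceiling. They were 2350.31 at 4727663 to 4728400, 2067.12 at 4897575 to 4898935 and 2000.08 at 6585255 to 6585914. After these came 1961.34 at 4720313 to 4721005, 1780.57 at 5485848 to 5486846, 1739.35 at 4749650 to 4750463 and 1624.62 at 4725261 to 4725920. All but 2 of the 10 highest peaks therefore lay in the first 500 kb of the domain. Its 3 widest peaks were elsewhere and had modest scores. They were 3454 bp wide with a score of 104 (6357690 to 6361143), 3315 bp with 480 (6710756 to 6714070) and 3121 bp with 348 (6722757 to 6725877). Of the 6 peaks of 2 kb or more in the left domain, 1 was at the ceiling and the other 5 scored below 500.

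The right domain differed from the background at the top of the scale. Its median score of 199 (160 to 294) was within counting error of the background, and 90 of 189 peaks, 47.6% (40.32 to 54.99%), scored above the background's median. Its upper quartile was 972, against 612 in the rest of IV and 468 in the left domain. Scores above 1000 were reached by 46 of 189 peaks, 24.3% (exact Clopper-Pearson interval 18.4 to 31.1%), against 122 of 774, 15.8% (13.3 to 18.5%). Scores above 2000 were reached by 16.4% (11.4 to 22.5%) in the right domain, 6.72% (5.06 to 8.72%) in the rest of IV and 3.68% (1.36 to 7.84%) in the left domain. The left domain's interval overlapped that of the rest of IV. Intermediate scores were scarcer, since 15.9% of right domain peaks (11.0 to 21.9%) fell between the median and the upper quartile of the rest of IV, a class that by its definition holds 24.9% of the background.

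**Figure D5:**
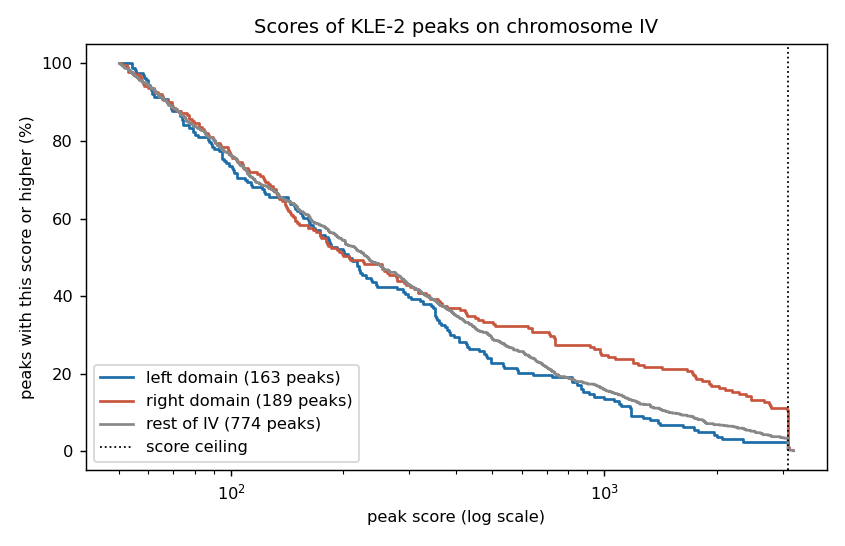
Share of peaks with at least a given score (vertical axis, percent) by score on a log scale, for the left domain, the right domain and the rest of IV, with the score ceiling as a dotted line. The curves lie close together up to about the median and part above 500, where the right domain runs above and the left domain mostly below the background.

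Of the 189 peaks of the right domain, 19 reached the ceiling score, a share of 10.1% (6.16 to 15.3%), against 25 of 774 in the rest of IV, 3.23% (2.10 to 4.73%). Per length this was 5.14 ceiling peaks per Mb (3.09 to 8.02) against 2.21 (1.43 to 3.27), a ratio of 2.32 (1.21 to 4.39). The right domain was thus poorer in peaks as a whole and richer in ceiling peaks. Counts are small, and against the middle alone the ratio was 2.23 (1.07 to 4.71). For the left domain the ratio of ceiling peaks to the rest of IV was 0.542 (0.105 to 1.78), which includes 1. Ceiling peaks made up 29.1% of the covered bases of the right domain, 45.0 of 155 kb, against 9.31% in the rest of IV and 5.24% in the left domain.

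The 19 ceiling peaks of the right domain were spread over 12 of its 37 windows, with at most 3 in a window. Apart from a single one with a score of 3116.29 (15895565 to 15896361, 797 bp), all of them tied at 3100, so width orders them. The widest spanned 14476136 to 14481208, with a width of 5073 bp. It was followed by a peak of 4311 bp at 15078413 to 15082723 and one of 4176 bp at 13929203 to 13933378. Further wide ones were the 3257 bp peak from 15373792 to 15377048, the 2922 bp peak from 15188153 to 15191074 and the 2506 bp peak from 13921789 to 13924294. The last named were 2483 bp wide at 16880370 to 16882852, 2353 bp wide at 15058627 to 15060979 and 2026 bp wide at 17140273 to 17142298. Of the 19, 10 reached 2 kb, as did 9 of the 25 ceiling peaks in the rest of IV. The stretch from 15.0 to 15.5 Mb held 7 of the 19, and that from 13.5 to 14.0 Mb held 4. From 16.0 Mb to the end of the domain there were 3.

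Most ceiling peaks of the right domain had no other peak within 2 kb. Of the 19, 2 had any peak within 2 kb, against 3 of 3 in the left domain and 11 of 25 in the rest of IV. The exception was a couple separated by 279 bp (15076204 to 15078133 and 15078413 to 15082723). Within 20 kb, 7 of the 19 had another ceiling peak, against 5 of 25 in the rest of IV and 3 of 3 in the left domain. These counts are small, and the differences were not tested. Among the 25 right domain peaks with no neighbour within 20 kb, 6 were at the ceiling and the median score was 426 (107 to 2791), whereas the 50 such peaks in the rest of IV had 3 at the ceiling and a median of 193 (117 to 425). Their intervals overlapped.

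Width followed score in the right domain. The median width was 567 bp (exact order-statistic interval 509 to 633) against 532 bp (519 to 550) in the rest of IV and 544 bp (525 to 592) in the left domain, and these intervals overlapped. The 90th percentile was 1586 bp against 1024 bp in the rest of IV. Peaks of 2 kb or more made up 6.88% of the right domain (13 of 189; 3.71 to 11.5%), 3.68% of the left domain (1.36 to 7.84%) and 2.58% of the rest of IV (1.59 to 3.96%). Of these 13, 10 were at the ceiling, and 1 scored below 500. Among peaks with a score above the list's median, 68.9% in the right domain (58.3 to 78.2%) were wider than the median of such peaks in the rest of IV. In the left domain the same share was 39.7% (28.5 to 51.9%). Over all peaks the shares were 53.4% in each domain (46.1 to 60.7% on the right and 45.4 to 61.2% on the left).

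Peaks next to the domain edges were of mixed strength. The left domain's edges lay in gaps of 38.7 kb at 4.5 Mb and 39.0 kb at 7.0 Mb. Its first peak scored 62.18 (4510830 to 4511168), and the last peak before it 827.88 (4470742 to 4472106). Its last peak scored 150.48 (6977041 to 6977535), and the first of the middle 132.77 (7016533 to 7016982). At 13.5 Mb a peak with a score of 971.74 crossed the edge (13499838 to 13500643) and was counted in the right domain by its midpoint. The last peak before it, 34.7 kb to its left, was at the ceiling (13462121 to 13465100). At 17.2 Mb the edge lay in a gap of 93.5 kb between peaks with scores of 195.07 (17155579 to 17156018) and 1828.66 (17249525 to 17250222).

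The right domain takes up most of the right arm of IV, so its position and its piRNA genes cannot be told apart with 1 chromosome. For scale, stretches at the same relative position were read from chromosomes I, II, III and V. At the position of the right domain these had 78.1, 79.9, 100.2 and 54.3 peaks per Mb, against 51.1 on IV, and the interval on V (47.6 to 61.6) overlapped that of IV. Relative to the rest of their own chromosome, density was 0.867 times on I, 1.24 on II, 1.11 on III and 1.13 on V, against 0.752 on IV, where the rest here includes the left domain. The share at the ceiling was 2.41% on I, 3.88% on II (1.87 to 7.01%), 1.03% on III and 3.33% on V (1.45 to 6.46%), against 10.1% on IV, and the intervals on II and V overlapped that of IV.

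At the position of the left domain the other autosomes had 88.7, 65.1, 84.3 and 53.9 peaks per Mb, so the 65.2 of IV lay within their range. The variance of window counts was 1.65 times the mean on I, 2.40 on II, 1.50 on III and 2.76 on V, against 4.54 on IV. Gaps of 50 kb or more took up 16.8% of that stretch on I, 31.3% on II, 5.33% on III and 38.0% on V, against 40.5% on IV. At the position of the right domain they took up 21.5%, 26.9%, 9.16% and 36.0%, against 46.7% on IV. These comparisons were chosen after values of IV were seen and were not tested.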

How the data were processed

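The submitters' processing notes name BWA as aligner and ce10 as build. Per the file headers, coordinates are those of WormBase WS220, of which ce10 is the browser name, and the source column names MACS as peak caller. Its version, its threshold and whether the input was its control were not given in the sources used here. Each peak has a score that the authors deposited, on a scale that is not named. Without read counts in the list, sequencing depth is unknown. The input library was not analysed here.

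Peaks were assigned by midpoint. IV was taken to end at the last base of its last peak, 17493060. A gap runs between neighbouring peaks of the same segment, the ceiling is the most frequent score, and windows were 100 kb. Densities have exact Poisson, ratios conditional binomial, shares Clopper-Pearson and medians order-statistic 95% intervals, and no p-values were computed. Named peaks were, per domain, the 10 of highest score (ties by width), the 3 widest, the longest run and those next to the edges, with the 3 longest gaps. The crowded stretch and the ceiling peaks beyond these were named after their values were seen. The domains, quantities and rules were chosen with earlier results of these data known. Functions were tested on simulated peaks placed at random without clustering, so the test does not cover intervals where peaks cluster. The share of short gaps was not among the quantities recovered. Tables were computed in Python 3.11.15 with pandas 2.3.3, numpy 2.4.6 and, for intervals, scipy 1.17.1; matplotlib 3.10.9 drew the plots.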

Additional observations from a re-analysis of the deposited data

How the results depend on the processing

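Of 67 recomputed values of 12 results, 61 stayed within the interval of the reported value and 6 moved outside it. No result whose interval excluded no difference (a ratio of 1 or a share of 50%) changed direction. Of 57 values with such a reference, 9 crossed it, all for results whose intervals included it: the left density ratio was 1.06 against the middle alone, and left wide peaks were 48.5%, 49.7% and 49.1% against the middle, against the other autosomes and without the crowded windows, beside the 44.7% and 39.7% given below. Left high scores reached 50.9% without those windows, right high scores 50.6% with peaks merged and right short gaps 52.1% against the middle. The left to background density ratio of 0.951 rested on crowded windows: it was 0.703 (0.568 to 0.862) without the 3 windows of 18 or more peaks and 0.735 (0.594 to 0.903) when such windows were left out of the rest of IV too. Leaving out full windows of the left domain alone lowers the ratio by construction, and in both versions windows were picked by their own counts. Without the 3 windows the share of short gaps in the left domain was 44.7%. Counted in covered bases instead of peaks, the right domain's ratio was 0.899. Among peaks above the list's median score, the share of wide peaks was 39.7% in the left and 68.9% in the right domain; the cause was not tested. The share at the ceiling in the right domain ran from 10.1 to 14.8% over 5 alternatives. The highest came from counting the top 5% of scores, a lower limit that can only raise the share. This share uses no background, so taking the middle alone could not change it in either domain. Those unchanged values are among the 61 that stayed. The count of separate sites, the crowded windows, the other autosomes as background, merging within 2 kb and the joining gaps of 1, 5 and 10 kb were chosen after seeing the data. No paired analysis was possible because values of a single library were analysed here, which also means that no replicate could be left out. Peaks under the authors' threshold are missing, and the peaks tied at the ceiling cannot be ranked by score.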
